A study of Mus musculus with 8 samples.

Results

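The nuclear genes of respiratory complexes II to V were followed by RNA-Seq in the brown adipose tissue (BAT) of C57BL/6 males. They were taken by symbol: Sdha to Sdhd, Cyc1, Cycs, and every autosomal gene whose name begins with Uqcr, Atp5 or Cox4 to Cox8, without pseudogenes named -ps. The tissue-restricted isoforms Cox7a1, Cox8b and Cox6a2 were left out by name, and 1 further gene was left out because it is not autosomal. This gave 44 genes of 49452 in the table: 4 of complex II, 9 of complex III, Cycs, 12 of cytochrome oxidase (complex IV), 15 of ATP synthase (complex V), and Cox7a2l, Atp5s and Atp5sl, which carry the family names but are not counted here as subunits. Of the 44 genes, 42 could be tested. Cox7b2 and Cox8c were listed at or near 0 in every library and were not. The gene Cox4i1 was not analysed here. The sums and means for cytochrome oxidase hold neither it nor the genes left out above, so they do not cover the whole enzyme.

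Each of 4 groups held 2 mice. The first pair of groups was housed at 22 °C (replicates 4 and 7) or at 4 °C for 24 h (replicates 2 and 11). These mice were 10 to 12 weeks old, and the 4 °C mice were fasted for the last 4 h; whether those at 22 °C were fasted is not clear from the methods. The second pair was fed a control diet (CD, replicates 6 and 8) or a high-fat diet (HFD, replicates 2 and 6) for 28 weeks and was 32 weeks old. The control food is normal chow in the labels and a control diet in the study. Values are given in the order of these replicate numbers. They are rescaled FPKM: the authors' FPKM, a fragment density corrected for transcript length and library depth, multiplied so that the autosomal mRNA and lncRNA genes of each library sum to 1000000. No label says that the 2 libraries of a group came from separate cages or experiments, so p-values measure the spread between these libraries.

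The complexes form the end of the respiratory chain. Complex II (succinate dehydrogenase) and complex III pass electrons to cytochrome c, cytochrome oxidase hands them to oxygen, and ATP synthase lets the resulting proton gradient drive ATP production. In brown adipocytes UCP1 lets protons return without ATP synthase, and the tissue is known for abundant oxidase and little ATP synthase. The amount of subunit c, the membrane ring of ATP synthase, is known to limit assembly of that enzyme in BAT. It is encoded by 3 genes, Atp5g1, Atp5g2 and Atp5g3, which give the same mature protein.

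All 10 brown adipocyte markers were detected in every library. Libraries differed in other ways that touch the results below. In every group 1 library (number 4 at 22 °C, number 11 at 4 °C, number 8 of CD, number 2 of HFD) had the satellite-repeat gene Gm10800 above 100 FPKM, and these are called satellite-high. Both 22 °C libraries and CD replicate 6 list no X or Y gene above 0, and their mitochondrial genes sum to 0, 54311 and 85262 FPKM, against 285704 to 463509 in the other 5. In the cold comparison this difference cannot be told apart from temperature. Only autosomal genes enter the rescaling. Summed skeletal muscle markers, 11 of 12 found and none at 0, were 2967 and 718 in the 22 °C libraries, 14955 and 8332 in those from 4 °C, 2438 and 8719 with CD and 950.2 and 154 with HFD. Summed macrophage markers, all 6 found, were 426 and 213 under CD and 857 and 929.5 under HFD. In whole tissue, fewer cells of a type and less RNA per cell cannot be told apart.

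The 44 genes took 7.41% and 8.69% of the autosomal sum in the 22 °C libraries, 7.63% and 8.52% in those from 4 °C, 9.36% and 7.23% with CD and 5.92% and 7.66% with HFD. The cold groups overlapped and so did the diet groups. Of the 42 tested genes 38 had a mean above 100 over the 8 libraries, and the highest was Atp5b with 8562. Cox4i2, Cox6b2, Atp5s and Atp5sl were the others.

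**Figure D1:**
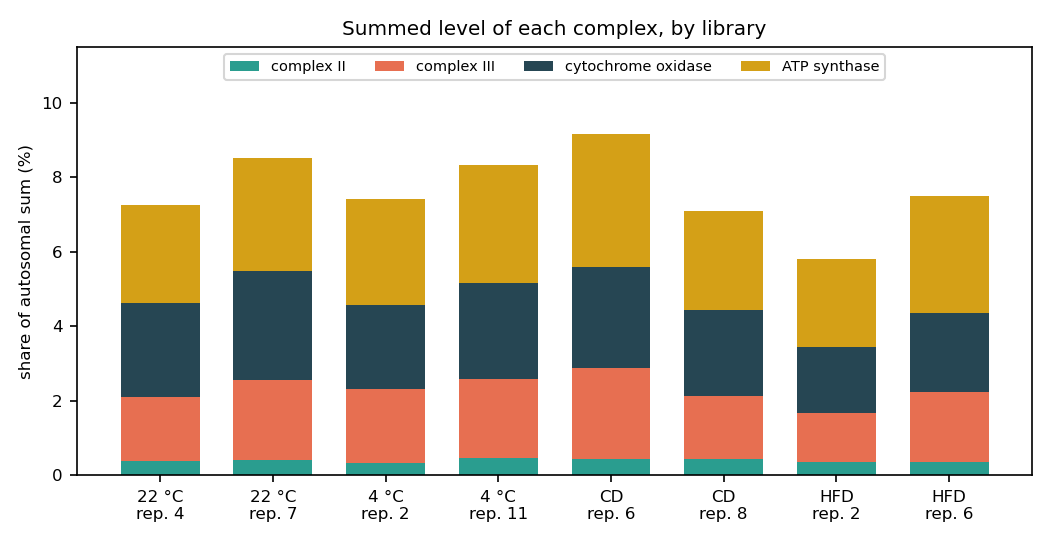
Share of the autosomal FPKM sum (%, vertical axis) taken by the genes of complex II, complex III, cytochrome oxidase and ATP synthase, stacked, in each of the 8 libraries. The total is lowest in HFD replicate 2 and highest in CD replicate 6, and the groups of each comparison overlap.

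After 24 h at 4 °C none of the 42 genes passed an adjusted p of 0.05 (limma), where 0.609% of 22163 genes did. Unadjusted, 3 were under 0.05 (Atp5g1, Atp5sl and Cycs), against 27.4% of all genes. Both cold libraries lay above both at 22 °C for 10 of the 42 genes, where the background is 16.3%, and below both for 8, where it is 44.3%. The median log2 fold change was 0.03, against −0.16 over all genes tested, with 24 genes above 0 and 18 below; of all genes 31.5% were above 0 and 68.5% below. This balance depended on scale. With FPKM as deposited the median was 0.45 and 31 of 42 were higher in both cold libraries, where 37.9% of all genes were. Uqcr11, Cox6c, Cox7a2l and Atp5c1, lower in both cold libraries on the rescaled values, were then at 0.14, 0.07, 0.07 and 0.11. Cox6a1 and Atp5j, also lower in both when rescaled, were then at −0.03 and −0.004, and Cox6b2 and Atp5s at −0.42 and −0.13. This setting moved the median of mRNA genes from −0.15 to 0.22. Between the satellite-high libraries the median was 0.24, and between the satellite-low libraries −0.20. It was −0.09 without 22 °C replicate 4 or without 4 °C replicate 11, 0.16 without 22 °C replicate 7 and 0.10 without 4 °C replicate 2. All 11 muscle markers found were higher in both cold libraries. So were 6 of 10 brown adipocyte markers (Ppargc1a at 2.59, Dio2 at 2.64, Elovl3 at 4.25 and Ucp1 at 2.14 on the log2 scale, the first 2 called), while 3 were lower in both. Of 6 white adipocyte markers 2 were higher and 2 lower in both (Lep at −3.45), and 4 of 5 lymphoid markers were lower in both. Of 5 endothelial markers 1 was higher and 1 lower in both. The part of any of these in the members' levels was not tested.

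Under HFD no gene of 24496 was called (0% at an adjusted p of 0.05, limma), although 2454 (10% of them) had an unadjusted p under 0.05, and none of the 42 did. The levels leaned downward: 40 of 42 log2 fold changes were below 0, with a median of −0.30 against 0.08 over all genes, 35.9% of which were below 0. Both HFD libraries were below both CD libraries for 12 of the 42, where the background is 9.56%, and above both for Cox4i2 alone, where it is 27.1%. Those 12 were Sdhb, Uqcr10, Uqcr11, Uqcrb, Uqcrc2, Cox5a, Cox6a1, Cox6b2, Cox6c, Atp5d, Atp5j and Atp5j2. The median was −0.08 without CD replicate 6 or without HFD replicate 2, and −0.42 without CD replicate 8 or HFD replicate 6. Each of these leaves the library types unbalanced. Within satellite-high libraries the median was −0.24 and within satellite-low libraries −0.28, with 39 of 42 genes below 0 in each. With FPKM as deposited it was −0.13, with 31 of 42 below 0. Of the 12 genes lower in both HFD libraries, only Cox6a1 stayed so on that scale (827 and 744 under CD against 645 and 559 under HFD). The others overlapped, as did Cox4i2. CD replicate 6 also carries another leading code in its label than the other 3 diet libraries. With library type as a covariate 20 of the 42 had an unadjusted p under 0.05, where 20.9% of all genes did, and none an adjusted one, where 731 genes (2.98%) did. All 6 macrophage markers were higher in both HFD libraries, and 10 of 11 muscle markers lower. Of 5 lymphoid markers 3 were higher in both and 2 lower, and of 5 endothelial markers 2 were higher in both and none lower. Of 6 white adipocyte markers tested 4 were higher in both and none lower (Lep by 5.69 on the log2 scale), and of 10 brown adipocyte markers 4 were lower in both and 1 higher (Elovl3 at −3.36, Cidea at −1.24). The part of any of these in the members' levels was not tested.

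**Figure D2:**
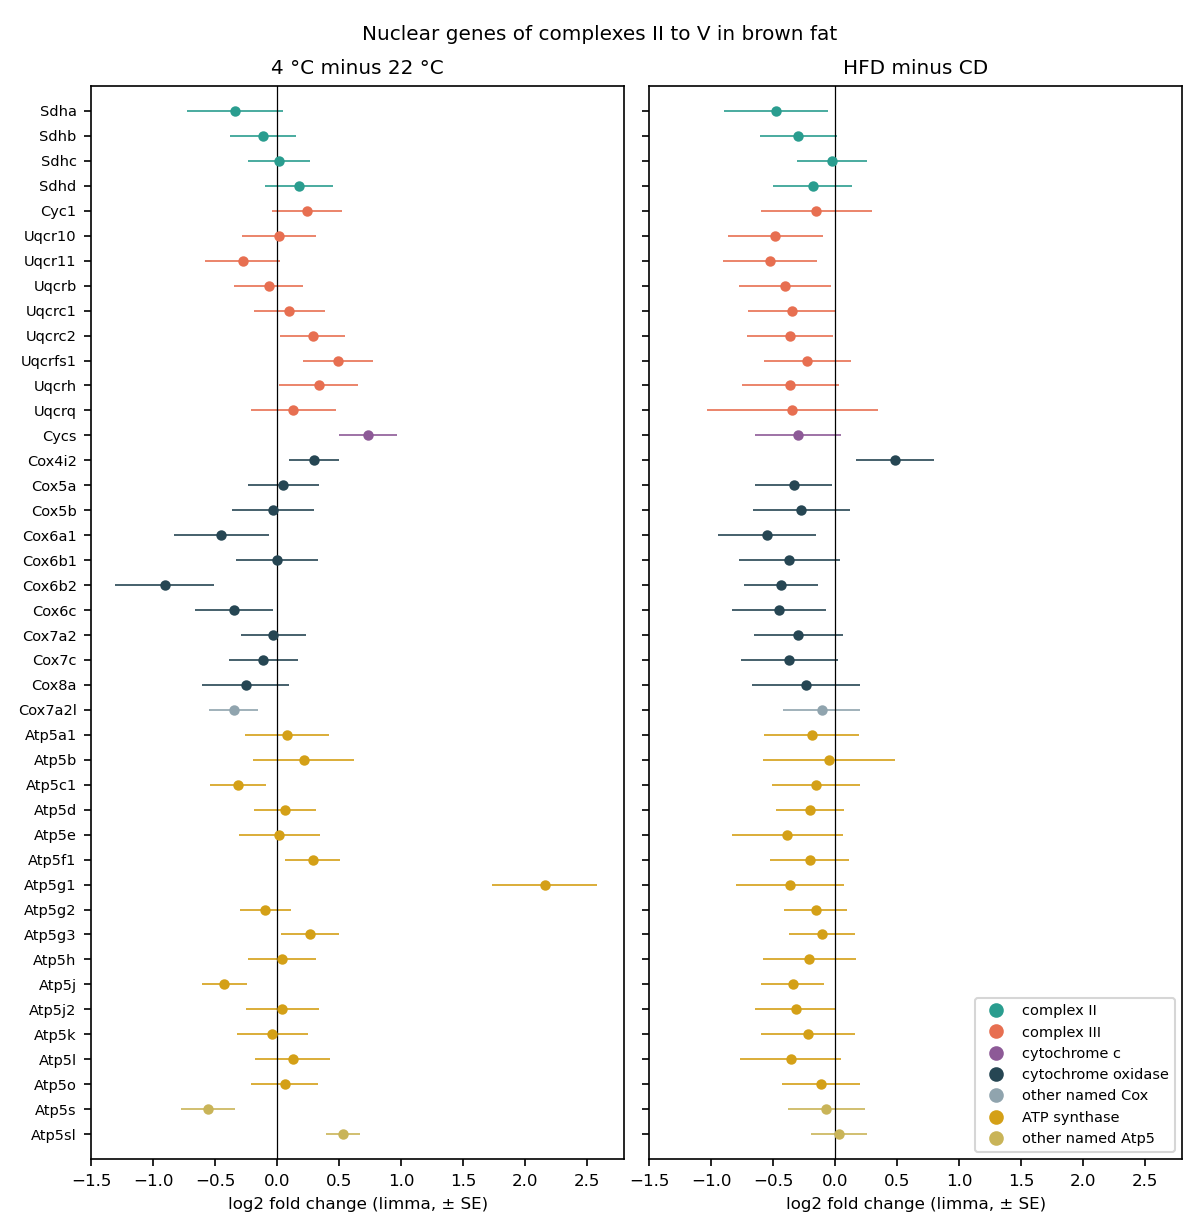
Log2 fold change (limma, horizontal axis, bars ± SE) of the 42 tested genes in the cold (left) and under HFD (right), coloured by complex. Atp5g1 stands at 2.16 in the cold, far from the rest, while under HFD 40 of 42 points lie below 0.

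Complex II oxidises succinate and belongs to the citric acid cycle as well. Its flavoprotein Sdha was 627 and 576 in the 22 °C libraries, 329.9 and 683 in those from 4 °C, 726 and 1389.8 with CD and 897 and 582 with HFD. CD replicate 8 was the highest of all, and both comparisons overlapped. The iron-sulphur subunit Sdhb was 1463 and 1329 in the 22 °C libraries, 1104 and 1502 in those from 4 °C, 1576 and 1406 with CD and 1230.1 and 1195 with HFD. It overlapped in the cold and was lower in both HFD libraries, with a log2 difference of −0.30 (SE 0.31, adjusted p 0.934). The membrane anchors Sdhc and Sdhd overlapped in both comparisons, with log2 fold changes of 0.02 and 0.18 in the cold and −0.02 and −0.18 under HFD. Summed over the 4 genes, complex II was 4256 and 4371 under CD and 3603 and 3531 under HFD, groups that did not overlap. With FPKM as deposited these sums overlapped, as did the diet groups of Sdhb.

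Complex III carries electrons from ubiquinol to cytochrome c. In the cold 7 of its 9 genes lay above 0 (median 0.13), where 31.5% of all genes did, and 3 were higher in both cold libraries, where 16.3% of all genes were: Uqcrfs1, Uqcrc2 and Uqcrh. Between satellite-low libraries only Uqcrfs1 (0.16), Uqcrh (0.03) and Uqcrc2 (0.005) lay above 0. Between satellite-high libraries all but Uqcr11 (−0.14) did. Uqcrfs1 (ENSMUSG00000038462, chromosome 13, 30540308 to 30545362), the Rieske iron-sulphur protein, was 919 and 1326 at 22 °C against 1481 and 1632 at 4 °C, a log2 difference of 0.49 (SE 0.28, adjusted p 0.318). That difference was 0.23 without 22 °C replicate 4 and 0.76 without 22 °C replicate 7. The core protein Uqcrc2 was 1219 and 1408 at 22 °C against 1413 and 1805 at 4 °C, and the log2 difference was 0.29 (SE 0.26, adjusted p 0.519). Uqcrc1, the other core protein, overlapped at 0.10, as did the haem protein Cyc1 at 0.24 and the small subunit Uqcrb at −0.07. Uqcr11 was lower in both cold libraries, at −0.28, but with FPKM as deposited it was higher in both, at 0.14.

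Under HFD all 9 genes of complex III were below 0 (median −0.36), where 35.9% of all genes were, and 4 were lower in both libraries, where 9.56% of all genes were. The small subunit Uqcr11 was 3829.7 and 3091 under CD against 2152 and 2646 under HFD, a log2 difference of −0.53 (SE 0.38, adjusted p 0.799). Its neighbour in the complex, Uqcr10, was 3129 and 2216 under CD against 1628 and 2180.4 under HFD, with −0.48 (SE 0.39, adjusted p 0.842). For both genes CD and HFD did not overlap. Uqcrc2 and Uqcrb were the other 2, at −0.36 and −0.41. With FPKM as deposited all 4 overlapped. Uqcrc1, Uqcrfs1 and Cyc1 overlapped, at −0.35, −0.23 and −0.15. The libraries of one group could differ more than the groups: Uqcrq was 3489.8 and 1149 under CD against 946 and 2622 under HFD. Its log2 difference was −0.28 between satellite-high libraries and −0.41 between satellite-low libraries.

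Cytochrome c is the soluble carrier between complexes III and IV. Cycs (ENSMUSG00000063694, chromosome 6, 50562563 to 50566538) was 869 and 974 in the 22 °C libraries, 1664 and 1404 in those from 4 °C, 1328 and 882 with CD and 781 and 991 with HFD. Both cold libraries were above both at 22 °C, with a log2 difference of 0.73 (SE 0.23, adjusted p 0.142). Its adjusted p ran from 0.0729 to 0.744 over the alternatives, and the log2 fold change stayed between 0.57 and 1.15. Under HFD the groups overlapped, at −0.30 (SE 0.34, adjusted p 0.955).

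Cytochrome oxidase is the terminal enzyme. In the cold 8 of its 10 tested genes lay below 0, where 68.5% of all genes did, with a median of −0.07 that is above the −0.16 of all genes. Between satellite-high libraries Cox4i2, Cox5a, Cox5b, Cox7a2 and Cox8a lay above 0, and between satellite-low libraries Cox4i2 and Cox6b1 did. Under HFD 9 of 10 lay below 0 (median −0.35), where 35.9% of all genes did. Cox6a1 (ENSMUSG00000041697, chromosome 5, 115345642 to 115348981), the widespread isoform of subunit 6a, was 4666 and 5058 in the 22 °C libraries, 2871 and 4403 in those from 4 °C, 3262 and 4131 with CD and 2920.2 and 2146 with HFD. It was lower in both treated libraries of each comparison, at −0.45 (SE 0.38, adjusted p 0.483) in the cold and −0.55 (SE 0.40, adjusted p 0.798) under HFD. With FPKM as deposited its cold groups overlapped, at −0.03. The cold value was −0.14 without 4 °C replicate 2 and −0.76 without 4 °C replicate 11. Cox6c, a small membrane subunit, was 3662 and 4293 in the 22 °C libraries, 2943 and 3303 in those from 4 °C, 4047 and 3576 with CD and 2555 and 3034 with HFD. Its log2 fold changes were −0.35 and −0.45, again with no overlap in either comparison on the rescaled values. With FPKM as deposited it overlapped in both. Its gene overlaps Vps13b on the opposite strand over 5344 bases. The library kit was directional, but whether strand was used in counting is not given in the sources used here.

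Cox5a and Cox5b, which sit beside the catalytic core, both overlapped in the cold, at 0.05 and −0.03. Under HFD Cox5a was lower in both libraries on the rescaled values, at −0.33, and Cox5b overlapped, at −0.27. Cox7a2 and Cox8a, the widely expressed isoforms of their subunits, overlapped in both comparisons. Their values were −0.03 and −0.25 in the cold, and −0.30 and −0.23 under HFD. Minor isoforms had far lower levels. Cox4i2, known for induction by low oxygen in lung, was 10.3 and 8.59 in the 22 °C libraries, 10.6 and 13.2 in those from 4 °C, 9.17 and 6.44 with CD and 9.55 and 13.0 with HFD. It was higher in both treated libraries of each comparison, at 0.30 (SE 0.20, adjusted p 0.382) in the cold and 0.48 (SE 0.31, adjusted p 0.759) under HFD. With FPKM as deposited its diet groups overlapped. Cox6b2, known from testis, was 19.96 and 8.70 in the 22 °C libraries, 6.60 and 6.61 in those from 4 °C, 8.56 and 6.94 with CD and 4.82 and 6.12 with HFD. It was lower in both, at −0.91 (SE 0.40, adjusted p 0.224) and −0.44 (SE 0.30, adjusted p 0.783), and one 22 °C library stood well above the rest. Cox7a2l, not counted here as a subunit, was 572 and 532 at 22 °C against 476 and 392.4 at 4 °C, lower in both cold libraries at −0.35 (SE 0.20, adjusted p 0.307).

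In the cold 11 of the 15 ATP synthase genes lay above 0 (median 0.06), where 31.5% of all genes did. Between satellite-low libraries only Atp5b, Atp5f1, Atp5g1 and Atp5g3 did. Under HFD all 15 lay below 0 (median −0.21), where 35.9% of all genes did. ATP synthase was led by Atp5b, the catalytic beta subunit. Its level was 6562 and 7399 in the 22 °C libraries, 7741 and 8454 in those from 4 °C, 11506 and 7999.5 with CD and 7711 and 11122 with HFD. It was higher in both cold libraries, at 0.22 (SE 0.41, adjusted p 0.76), and overlapped under HFD, at −0.05 (SE 0.53, adjusted p 0.9997). The alpha subunit Atp5a1 overlapped in both comparisons, at 0.08 and −0.19. The stalk subunit Atp5c1 was 1359 and 1478 at 22 °C against 1107 and 1172 at 4 °C, lower in both cold libraries at −0.32 (SE 0.22, adjusted p 0.405). Atp5f1, of the peripheral stalk, was 869 and 1032 at 22 °C against 1120.4 and 1192 at 4 °C, higher in both at 0.29 (SE 0.22, adjusted p 0.446). Under HFD these were −0.16 and −0.21, with overlap. Coupling factor 6, encoded by Atp5j, was 471 and 535 in the 22 °C libraries, 352 and 397 in those from 4 °C, 481 and 452 with CD and 356 and 379.8 with HFD. It was lower in both treated libraries of each comparison, at −0.42 (SE 0.18, adjusted p 0.221) and −0.34 (SE 0.25, adjusted p 0.808). With FPKM as deposited its groups overlapped in both comparisons, at −0.004 in the cold. Its gene overlaps Gabpa on the opposite strand. Atp5o, at 0.06 and −0.11, is uncertain because its row spans several neighbouring genes.

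Atp5sl and Atp5s differed in direction in the cold. Atp5sl, known as an assembly factor of complex I under another name, was 74.5 and 81.3 at 22 °C against 113 and 113 at 4 °C, higher in both with a log2 difference of 0.53 (SE 0.14, adjusted p 0.103). Atp5s, also called factor B, was 18.5 and 16.5 at 22 °C against 13.7 and 9.66 at 4 °C, lower in both at −0.56 (SE 0.22, adjusted p 0.188). Under HFD they were 0.03 and −0.07, with overlap.

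The widest difference in the cold was in a gene of subunit c. Atp5g1 (ENSMUSG00000006057, chromosome 11, 96068852 to 96075670) was 68.9 and 32.4 in the 22 °C libraries, 266 and 173 in those from 4 °C, 47.8 and 120.1 with CD and 62.8 and 54.9 with HFD. Both cold libraries exceeded every other library. Its log2 difference was 2.16 (SE 0.42, adjusted p 0.0716), 4.47-fold on that scale. It passed the threshold with the sum over every autosomal row (adjusted p 0.000487), with median centring (0.0226), with a filter of 1 (0.0490) and without 22 °C replicate 4 (0.0282), and reached 0.208 at most elsewhere. Under HFD the groups overlapped, at −0.36 (SE 0.43, adjusted p 0.962). Between satellite-high libraries the HFD difference was −0.92, and between satellite-low libraries 0.20. The other genes for the same protein had smaller differences. Atp5g2 was 407 and 443 at 22 °C against 351 and 449.7 at 4 °C, overlapping at −0.10 (SE 0.20, adjusted p 0.789). Atp5g3 was 381 and 532 at 22 °C against 546 and 539 at 4 °C, higher in both at 0.27 (SE 0.23, adjusted p 0.494). Under HFD they were −0.16 and −0.11.

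As a share of the summed level of these 3 genes, Atp5g1 made up 8.04% and 3.22% in the 22 °C libraries, 22.9% and 14.9% in those from 4 °C, 5.54% and 13.9% with CD and 8.68% and 6.67% with HFD. This share does not depend on the scaling between libraries. The sum of the 3 genes was 857 and 1008 at 22 °C and 1163 and 1162 at 4 °C, without overlap, and 864 and 863 under CD and 723 and 824 under HFD, also without overlap. With FPKM as deposited the sums stayed apart in the cold and overlapped between CD and HFD. The 3 libraries with the highest Atp5g1 level (4 °C replicates 2 and 11 and CD replicate 8) were the 3 with the highest summed muscle markers. Cox6a2, the isoform of subunit 6a left out above by name, was highest in the same 3, with 242, 179 and 178, against 2.33 to 42.1 in the other 5. The part of muscle RNA, or of the other cell type markers that differed in the cold, in the Atp5g1 level was not tested.

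**Figure D3:**
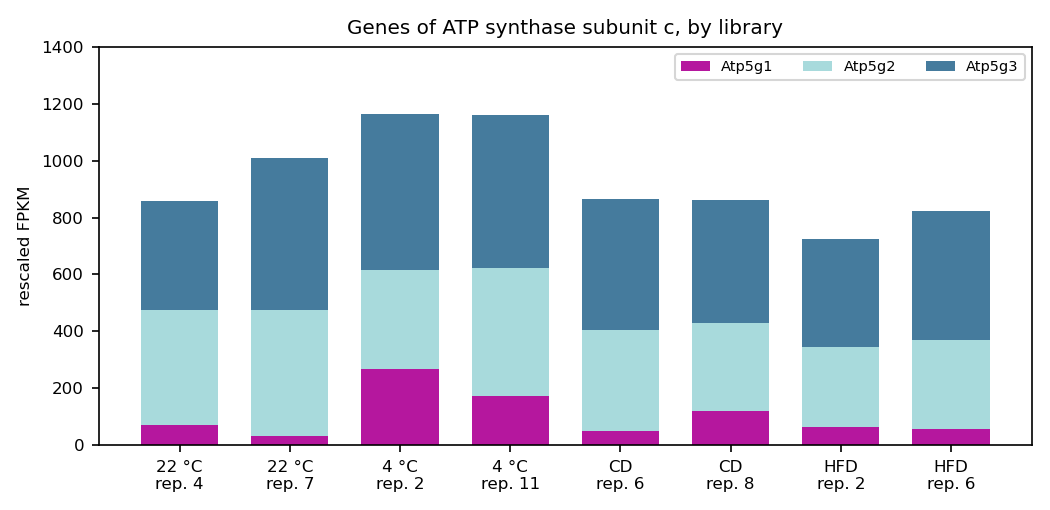
Rescaled FPKM (vertical axis) of the 3 genes of ATP synthase subunit c, stacked, in each of the 8 libraries. The Atp5g1 segment is tallest in the 4 °C libraries (266 and 173) and next tallest in CD replicate 8 (120.1), while Atp5g2 and Atp5g3 vary less.

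Because Atp5g1 had the largest log2 fold change in the cold and Cycs the next largest above 0, the DNA before the start sites of Cycs and the 3 subunit c genes is shown (RefSeq, GRCm38.p6, minus strand, 5′ to 3′). Capitals mark a match to a searched motif: GCGCA and GCGC with any 1 base between, or GCGCATG (both nuclear respiratory factor 1, and able to overlap), CCGGAAG (ETS factors and GABP), AAGATGG (YY1), TGACGTCA (cAMP response element) or AAGGTCA (oestrogen-related receptor (ERR) element), on either strand.
Atp5g1, chr11:96075671-96075850: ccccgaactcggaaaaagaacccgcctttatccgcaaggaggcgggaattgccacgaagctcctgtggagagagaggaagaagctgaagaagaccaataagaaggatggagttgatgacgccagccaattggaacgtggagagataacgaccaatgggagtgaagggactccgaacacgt
Atp5g2, chr15:102671068-102671097: ctccggccGCGCATGCGCagagccttccct
Atp5g3, chr2:73911327-73911506: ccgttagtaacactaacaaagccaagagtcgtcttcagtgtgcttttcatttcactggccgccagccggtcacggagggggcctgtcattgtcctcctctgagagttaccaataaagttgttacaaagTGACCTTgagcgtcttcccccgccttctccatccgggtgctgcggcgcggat
Cycs, chr6:50566570-50566642: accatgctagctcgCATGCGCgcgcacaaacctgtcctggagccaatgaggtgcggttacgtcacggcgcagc

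None of these letters was found in the 250 bases before the Atp5g1 start site. Atp5g2 held the nuclear respiratory factor 1 motif 42 bases before its start, Atp5g3 the ERR element at 52, and Cycs GCGCATG at 59 and the cAMP response element at 169, outside the stretch shown. Of the 44 genes 35 had such a window. The first of these motifs was in 7 of them (20%), against 4.23% of 27025 genes, and GCGCATG in 7, against 3.68%. CCGGAAG was in 9 (25.7%, against 7.83%). TGACGTCA was in Uqcrfs1 and Cycs only, against 1.77% of genes, while AAGATGG and AAGGTCA were in 2 each, against 5.18% and 4.70%. A match is a run of letters and not a measured site.

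ATP synthase was then set against cytochrome oxidase within each library, since multiplying a library by a factor leaves the ratio of sums unchanged. Cytochrome oxidase here means its 10 tested genes, without Cox4i1, Cox7a1, Cox8b and Cox6a2. The summed ATP synthase genes stood at 1.03 and 1.04 times the summed cytochrome oxidase genes in the 22 °C libraries, 1.27 and 1.23 times in those from 4 °C, 1.31 and 1.16 with CD and 1.33 and 1.46 with HFD. Both treated libraries were above both controls in each comparison. As the difference of mean log2 levels over 15 and 10 genes, the libraries had 0.17 and 0.25 from 22 °C, 0.58 and 0.53 from 4 °C, 0.39 and 0.46 with CD and 0.49 and 0.47 with HFD. The cold shift was 0.34 (pooled SD 0.05), and 0.36 and 0.33 within satellite-high and satellite-low libraries. The HFD shift was 0.06 (pooled SD 0.03), with 0.03 and 0.08. With 2 libraries against 2 a two-sided exact permutation test cannot go below a p of 0.333, and both shifts are given as values with no p. Without CD replicate 6 the HFD shift was 0.03, and without CD replicate 8 it was 0.09.

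Atp5g1 carried part of the cold shift. Without it the libraries had 0.46 and 0.63 at 22 °C and 0.74 in each from 4 °C. The shift was then 0.20, with 0.29 between satellite-high and 0.12 between satellite-low libraries. With subunits of a mean of at least 100, again without Atp5g1, it was 0.17 in the cold and 0.14 under HFD. The sums themselves were as follows. Cytochrome oxidase was 25312 and 29251 at 22 °C and 22520.3 and 25781 at 4 °C, with overlap, and 27193 and 22971 under CD and 17713 and 21397 under HFD, without. ATP synthase overlapped in both comparisons, at 26182 and 30509.7 against 28497 and 31642 in the cold, and 35584 and 26620.5 against 23572.5 and 31326 under HFD. These sums depend on scale. With FPKM as deposited the cytochrome oxidase sums of CD and HFD overlapped, and the sums of both complexes were higher in both 4 °C libraries.

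**Figure D4:**
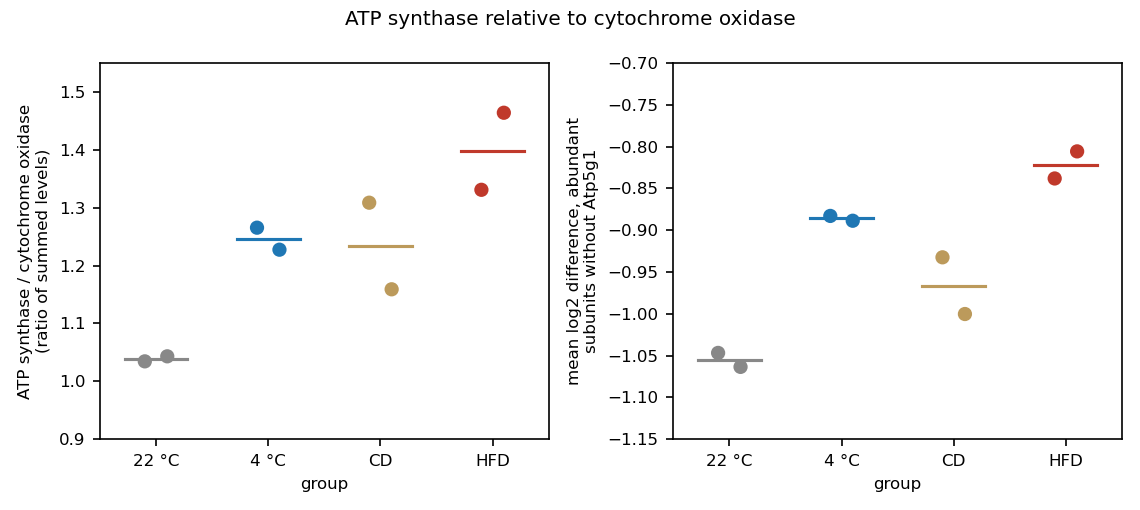
ATP synthase against cytochrome oxidase in each library (points) with group means (lines): the ratio of summed levels (left) and the difference of mean log2 levels over abundant subunits without Atp5g1 (right); neither axis starts at 0. The 22 °C libraries are lowest in both panels, at ratios of 1.03 and 1.04, and the HFD libraries highest, at 1.33 and 1.46.

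Assembly and regulatory factors of the same complexes were counted from a list of 40, of which 39 were tested. In the cold 25 were above 0 and 14 below, where 31.5% of all genes were above (median 0.09, against −0.16 over all genes). None passed an adjusted p of 0.05, and 10 (25.6%) had an unadjusted p under 0.05, where 27.4% of all genes did. Of the 39 factors, 23 serve cytochrome oxidase, among them the 4 with the lowest p. Cox10, which takes part in making its haem, was 29.04 and 39.0 at 22 °C and 71.7 and 67.2 at 4 °C, a log2 difference of 1.02 (SE 0.19, adjusted p 0.0667). Cmc1, which holds a catalytic subunit during assembly, was 108 and 108 against 61.7 and 47.1, at −0.996 (SE 0.18, adjusted p 0.0647). Cmc2 and the copper chaperone Sco2 were higher in both, at 0.91 (SE 0.18, adjusted p 0.0722) and 0.79 (SE 0.17, adjusted p 0.0803). Under HFD 11 were above 0 and 28 below, where 35.9% of all genes were below (median −0.12, against 0.08 over all genes). None was called, and 2 (5.13%) had an unadjusted p under 0.05, where 10% of all genes did. The 4 with the lowest p were Atpif1 at 0.83 (SE 0.27, adjusted p 0.344), Ttc19 at −0.57 (SE 0.22, adjusted p 0.467), Cox20 at −0.50 (SE 0.23, adjusted p 0.567) and Surf1 at −0.43 (SE 0.23, adjusted p 0.66).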

How the data were processed

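BAT RNA-Seq libraries of 8 mice were ribosome-depleted, mapped by the authors with TopHat2 2.0.10 to GRCm38 and quantified with Cufflinks (2.2.1 per the labels) on Ensembl 87. The deposited values are FPKM, 1 column per library, with no pooling and no counts, so limma replaced the planned count test. Fragment counts are not stated. Of the low FPKM values tested, 97.9% to 98.7% were multiples of 1 fragment within 0.1 fragment, and 1 fragment on 2000 bases was worth 0.00440 to 0.00602 FPKM (counting error only).

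FPKM were rescaled to the autosomal mRNA and lncRNA sum (GENCODE M21 types), because both 22 °C libraries and CD replicate 6 list every X and Y gene at 0. log2(rescaled + 1) was fitted with limma 3.58.1 in R 4.3.3 (trend) on the 4 libraries of each comparison, for genes with at least 0.1 in at least 2, with Benjamini-Hochberg adjustment over all genes. Fold changes are on that scale and understate low genes. Scripts were checked on simulated data. Members and lists were chosen with earlier results of these data known. Named genes are 26 chosen by role, plus the 5 lowest p and the 5 largest changes per comparison. Alternatives covered scaling, pseudocount, filter, design and left-out libraries. The table's 7 -ps pseudogenes of these families reach at most 0.329 FPKM.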

Additional observations from a re-analysis of the deposited data

How the results depend on the processing

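No paired analysis was possible because the cold groups have no replicate number in common and the diet groups have only 1. Library type was fitted as a covariate, with 34 genes called in the cold and 731 under HFD and none of them a member. The number of members called in the cold was 0, and 1 of 42 (Atp5g1, 2.38%) with the sum over every autosomal row (3.98% of all genes called), with median centring (7.72%) and with a filter of 1 in 2 libraries (9.18%). With a library left out it was between 0 and 1, the 1 being without 22 °C replicate 4 (1.61% of all genes called); under HFD it was 0 in all alternatives run. The median log2 fold change of the members in the cold (0.027) was 0.447 with FPKM as deposited, 0.190 with median centring, 0.241 within satellite-high and −0.195 within satellite-low libraries, where its direction turned, and −0.0909 to 0.162 with a library left out. In the cold it was also below 0 with quantile normalization (−0.0456) and without satellite genes (−0.0187). The HFD median (−0.296) was −0.486 with median centring (41 of 42 below 0), −0.150 with quantile normalization (35 below 0) and −0.129 with FPKM as deposited, and ran from −0.420 to −0.0758 with a library left out. ATP synthase minus cytochrome oxidase in the cold (0.343) was 0.185 after quantile normalization, 0.263 on summed levels, 0.201 without Atp5g1 and 0.169 for abundant subunits without Atp5g1. Under HFD (0.058) it was 0.181 on summed levels, 0.135 for abundant subunits and 0.144 for those without Atp5g1, and from 0.0265 (without CD replicate 6) to 0.0893 (without CD replicate 8) with a library left out. On summed levels those 2 values were 0.268 and 0.0932. It kept its sign in every alternative run, and the cause of these shifts was not tested. The settings without Atp5g1, for abundant subunits, within library types and without satellite genes were chosen after seeing the data. All genes called in the cold (135) became 0 with no filter on low values (5905 with an unadjusted p under 0.05) and 1366 with a filter of 1. The median of mRNA genes of at least 1 FPKM moved from −0.15 to 0.22 in the cold with FPKM as deposited, and from 0.20 to −0.06 under HFD with median centring. Depth bears most on the tested members of lowest level (Cox6b2, Cox4i2 and Atp5s). Fragments per member are not given, because they depend on the transcript length assumed.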
